A study of Homo sapiens with 2 samples.

Results

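The DNMT1-targeting miR-148 family was examined in FaDu, an established line from a hypopharyngeal squamous cell carcinoma (spelled FadU by the submitters). Its 3 members, miR-148a-3p, miR-148a-5p and miR-148b-3p, were chosen by name from 2038 miRNA names, and all 3 had values above 0 in both libraries. Small RNA had been sequenced from 1 library of sphere cells and 1 library of parental cells, so the values have no replicate check and no p-value is given. Sphere cells, described by the submitters as cancer stem cells derived from spheres, grew in DMEM-F12 to which N2 Plus Supplement was added, with EGF at 10 ng/ml and bFGF at 10 ng/ml. The medium of parental cells was RPMI-1640 plus 10% FBS (fetal bovine serum). Both cultures received 1% penicillin-streptomycin, and both libraries were made from 1 µg of total RNA. Medium, serum and growth form changed together with the group, and their parts cannot be told apart.

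A miRNA gene is transcribed and folded into a hairpin, from which either arm (5p or 3p) can be loaded into an Argonaute protein. The seed, bases 2 to 8 of the loaded arm, pairs with messenger RNAs and guides their repression. The miR-148 and miR-152 genes share a seed on their 3p arms, and this seed is known for repressing DNMT1, the enzyme that copies DNA methylation after replication. DNMT1 itself was not measured here.

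The sequences below show what joins and what separates the names. They are from RefSeq (GRCh38.p14), written from the 5′ end, with the seed in capitals.
miR-148a-3p: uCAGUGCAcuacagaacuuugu
miR-148b-3p: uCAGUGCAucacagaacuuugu
miR-152-3p: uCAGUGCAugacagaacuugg
miR-148b-5p: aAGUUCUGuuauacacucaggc
The 3 first-listed arms carry the seed CAGUGCA, and no other mature miRNA of the RefSeq table carries it at bases 2 to 8. Counted from 1 at the 5′ end, with the base of miR-148a-3p first, miR-148b-3p differs from miR-148a-3p by C9U and U10C. The arm miR-152-3p differs from miR-148a-3p by C9U, U10G and U20G and is 21 rather than 22 bases long. Over the bases compared, 20 of 22 are identical between the first pair and 18 of 21 between the second.

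The 2 hairpins that give rise to the members are shown because both arms of 1 precursor are compared below. Capitals mark the 3p arm.
MIR148A hairpin: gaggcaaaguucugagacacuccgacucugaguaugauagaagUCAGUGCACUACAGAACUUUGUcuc
MIR148B hairpin: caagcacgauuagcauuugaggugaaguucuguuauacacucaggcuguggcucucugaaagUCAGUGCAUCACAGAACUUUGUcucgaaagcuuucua
MIR148A lies at chr7:25949919-25949986 on the minus strand (GRCh38.p14), in no other gene of the GENCODE 29 basic annotation. Its nearest protein-coding neighbours there are NFE2L3, 202 kb away, and NPVF, 721 kb away. MIR148B lies at chr12:54337216-54337314 on the plus strand. It is in the sense direction within COPZ1, which encodes a subunit of the COPI vesicle coat, and was intronic in all 9 COPZ1 transcripts that span it, as it was in the overlapping sense transcript of AC078778.2. MIR152 lies at chr17:48037161-48037247 on the minus strand, in an intron of COPZ2, a COPI subunit gene related to COPZ1. miR-148a-3p and miR-148a-5p thus share 1 locus, and miR-148b-3p comes from another.

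The site in DNMT1 is shown to make the family's name concrete. In the GENCODE 29 transcript DNMT1-202 (gene on chromosome 19, GRCh38), the 3′ UTR is 127 bases long. It holds 1 match to TGCACTG, the reverse complement of the seed, searched on the mRNA strand, at bases 48 to 54 of the UTR. Capitals mark the match in the 22 bases printed.
DNMT1 3′ UTR: aggaatccccaacaTGCACTGa
Of 19115 protein-coding genes with a 3′ UTR, 11.9% hold this heptamer somewhere in the 3′ UTR. In the first 127 bases of the 17075 3′ UTRs of at least that length, 1.36% hold it. The match is a description of the sequence and says nothing about binding in these cells.

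Each file gave 1 RPKM value per name (reads per kilobase of transcript and per 1000000 reads). The deposited values summed to 5509071 in the sphere library and 26530004 in the parental library, 4.82 times more in the parental one. Each column was therefore also rescaled to sum to 1000000 ("rescaled RPKM"), and both scales are given for the members. Rescaled values are shares of the miRNA signal, and deposited values are relative to all reads behind the authors' RPKM. An estimated 683674 reads lay on miRNAs in spheres and 4550662 in parental cells, so the sphere values are less precise. These were 12.1% of an estimated 5630047 reads behind the RPKM in spheres and 58.5% of 7782765 in parental cells. Most sphere reads thus lay outside the listed miRNAs, and what they were was not tested. In bulk libraries, fewer cells that express a miRNA and less of it per cell cannot be told apart. All 5 epithelial markers were present in both libraries, at 925 to 35056 rescaled RPKM in spheres and 585 to 21938 in parental cells. They summed to 83300 rescaled RPKM in spheres and 37310 in parental cells. The log2 fold was 3.70 for miR-203a and 2.18 for miR-141-3p (1.43 and -0.090 as deposited). After rescaling, miR-31-5p (0.73), miR-200c-3p (0.66) and miR-205-5p (-0.17, lower in spheres) stayed within 2-fold. As deposited these were at -1.53, -1.61 and -2.44. The 5 mesenchymal markers summed to 76.5 rescaled RPKM in spheres and 28.9 in parental cells, of which miR-143-3p made up 66.3 in spheres and 25.9 in parental cells. The 5 blood markers summed to 226 in spheres and 742 in parental cells, nearly all of it miR-486-5p (207 in spheres and 741 in parental cells). miR-150-5p, another of them, had 13.2 in spheres and was listed at 0 in parental cells, and miR-451a had 5.86 in spheres and 0.44 in parental cells. The defining liver miRNA, miR-122-5p, was listed at 0 in both. The part of these other cell types' miRNAs in the family's values was not tested.

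The family was carried by miR-148a-3p in both cultures, and its 2 seed-bearing members had nearly the same share of the miRNA signal in spheres as in parental cells. The 3 members together made up 0.695% of the miRNA signal in spheres and 0.677% in parental cells. The ratio of these sums was 1.03 (95% counting interval 0.996 to 1.06), a log2 fold of 0.038. The minor arm of the miR-148a hairpin behaved differently and took a smaller share in spheres. As deposited, the sum was 38275 RPKM in spheres and 179513 RPKM in parental cells, a log2 fold of -2.23.

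**Figure D1:**
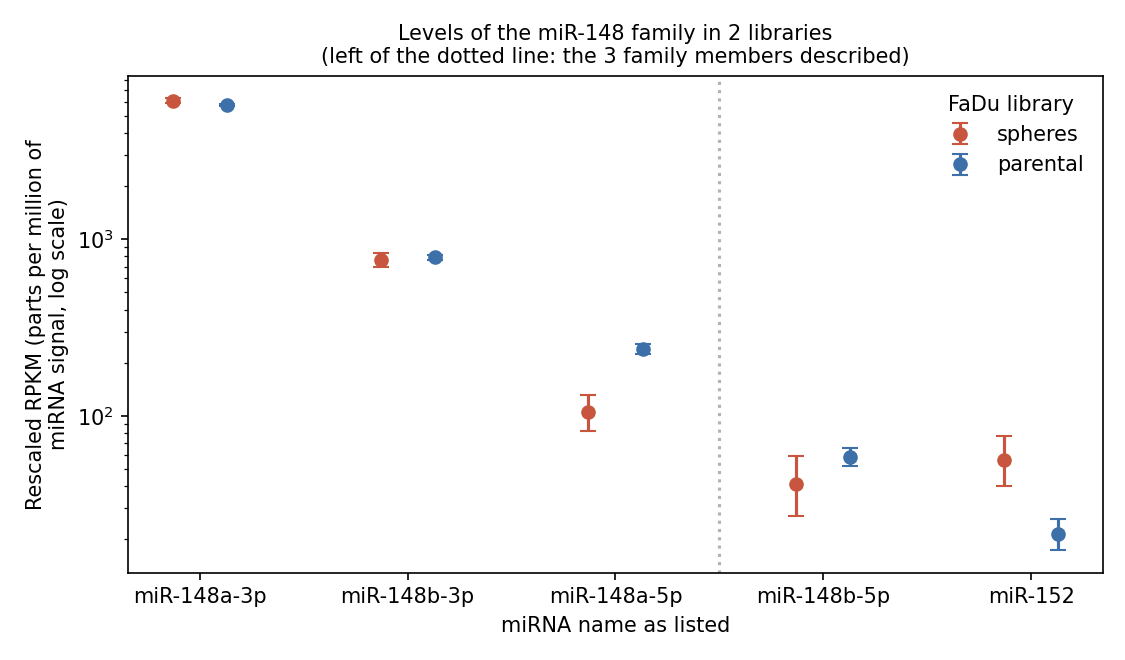
Level of each family name (rescaled RPKM, log axis) in the sphere library (red) and the parental library (blue); bars are exact 95% Poisson intervals of the estimated reads and cover counting error only. miR-148a-3p and miR-148b-3p have nearly equal points in both libraries, miR-148a-5p lies lower in spheres (105 against 239), and miR-152 lies higher in spheres (56.4 against 21.5).

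miR-148a-3p, the loaded arm best known for repressing DNMT1, had 6078 rescaled RPKM in spheres and 5735 in parental cells. This was 0.608% of the miRNA signal in spheres, on about 4147 estimated reads, and 0.573% in parental cells, on about 26049. It ranked 26th among all names in spheres and 22nd in parental cells. Its log2 fold was 0.084, a ratio of 1.06 (1.03 to 1.10), and 143 of the 269 measured miRNAs had a lower fold. The counting interval excludes 1, but the log2 fold lay below 0 under 2 of the 4 other scalings to the miRNAs (-0.012 and -0.24). A miRNA counted as measured when the mean of its 2 rescaled values was 10 or more. As deposited, it had 33484 RPKM in spheres and 152137 RPKM in parental cells, 4.54 times lower in spheres, against a median log2 fold of -2.25 over all measured miRNAs on that scale. Its deposited log2 fold of -2.18 lay close to that median.

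miR-148b-3p, which shares the seed and comes from the COPZ1 intron, had 765 rescaled RPKM in spheres and 793 in parental cells. The log2 fold was -0.051, and the ratio of 0.965 had a counting interval of 0.879 to 1.06 that includes 1. It rested on about 522 estimated reads in spheres and 3601 in parental cells, and it ranked 64th in spheres and 55th in parental cells. As deposited, it had 4214 RPKM in spheres and 21029 RPKM in parental cells, a log2 fold of -2.32. A difference between the cultures in the share of miR-148b-3p was not detectable with this number of miRNA reads.

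The balance of the 2 seed-bearing members was alike in both libraries. miR-148a-3p made up 88.8% of the pair in spheres (exact 95% interval 87.9% to 89.7%) and 87.9% in parental cells (87.5% to 88.2%). There was 7.95 times as much miR-148a-3p as miR-148b-3p in spheres and 7.23 times as much in parental cells. The change in this ratio does not depend on the scaling between libraries. miR-148b-3p moved by -0.14 in log2 relative to miR-148a-3p (-0.28 to 0.0062). The interval includes 0 and, on counting error alone, bounds the change in their ratio between these libraries at less than 2-fold.

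miR-148a-5p, the arm opposite miR-148a-3p, had 105 rescaled RPKM in spheres and 239 in parental cells. It was 2.28-fold lower in spheres (1.80 to 2.94), a log2 fold of -1.19, on about 71.5 estimated reads in spheres and 1087 in parental cells. The interval reaches below 2-fold. It ranked 124th in spheres and 92nd in parental cells, and 36 of the 269 measured miRNAs had a lower fold. As deposited, it had 577 RPKM in spheres and 6347 RPKM in parental cells and was 11.0 times lower in spheres, a log2 fold of -3.46.

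At a threshold of 2-fold, 1 of the 3 members, miR-148a-5p, was lower in spheres and none was higher after rescaling. Among all 269 measured miRNAs, 19.0% were at least 2-fold lower and 23.0% at least 2-fold higher, so 1 of 3 is no more than a description. On the deposited scale all 3 members were at least 2-fold lower and none higher, beside 79.6% lower and 6.32% higher of all measured miRNAs, so their count there is near the background. The median log2 fold of the members was -0.051 after rescaling, against 0.020 over all measured miRNAs. The deposited medians were -2.32 for the members and -2.25 for all.

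**Figure D2:**
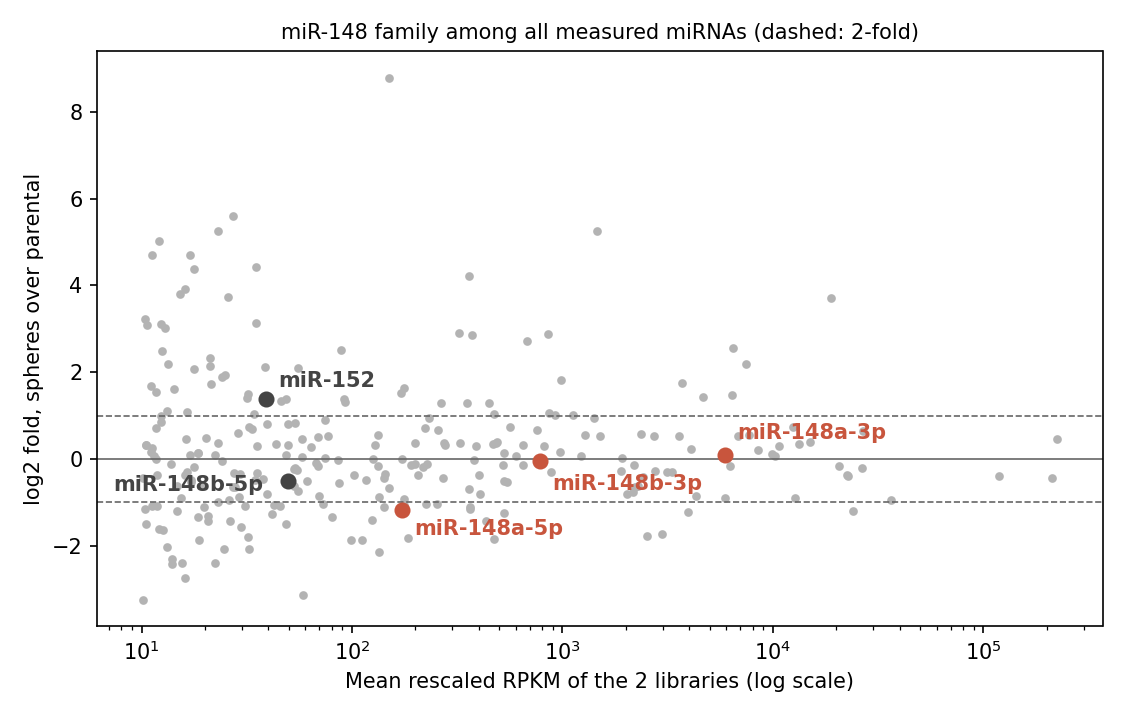
Log2 fold (spheres over parental, rescaled RPKM) of each of the 269 measured miRNAs against its mean level (log axis), with the 3 members in red and miR-148b-5p and miR-152 in dark grey; dashed lines mark 2-fold. miR-148a-3p and miR-148b-3p lie at 0.084 and -0.051, and miR-148a-5p, at -1.19, lies just beyond the lower line.

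The arms of the miR-148a hairpin gave a comparison that no scaling between the libraries can move. In spheres the 5p arm was 1.69% of the hairpin's estimated reads (exact 95% interval 1.33% to 2.13%), and in parental cells 4.0% (3.77% to 4.24%). There were 58.0 times as many 3p as 5p reads in spheres and 24.0 times as many in parental cells. Relative to miR-148a-3p, miR-148a-5p was 2.42-fold lower in spheres (1.91 to 3.15), on counting error alone.

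The paralogous hairpin went in the same direction, with an interval that includes no change. miR-148b-5p, the minor arm of MIR148B, had 41.0 rescaled RPKM in spheres and 58.6 in parental cells, on about 28 estimated reads in spheres and 266 in parental cells. It was 5.09% of its hairpin in spheres (3.41% to 7.28%) and 6.88% in parental cells (6.10% to 7.73%). Relative to miR-148b-3p it was 1.38-fold lower in spheres (0.919 to 2.14). Its own log2 fold was -0.51 after rescaling and -2.78 as deposited.

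A lower share of the minor arm was common in these libraries. Of 50 hairpins with both arms measured, 34 had a minor arm with a lower fold than the major arm (68.0%), so a lower minor arm in both miR-148 hairpins is near the background. The median difference was -0.50 in log2, with quartiles at -1.14 and 0.35. The miR-148a hairpin, at -1.27, had the 11th lowest value, and the miR-148b hairpin, at -0.46, the 26th. Of the 15 hairpins whose minor arm averaged 100 rescaled RPKM or more, with 20 or more estimated reads in each library, 13 were below 0, and miR-148a was the 4th lowest. This set of hairpins was chosen after the values of the family were seen.

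**Figure D3:**
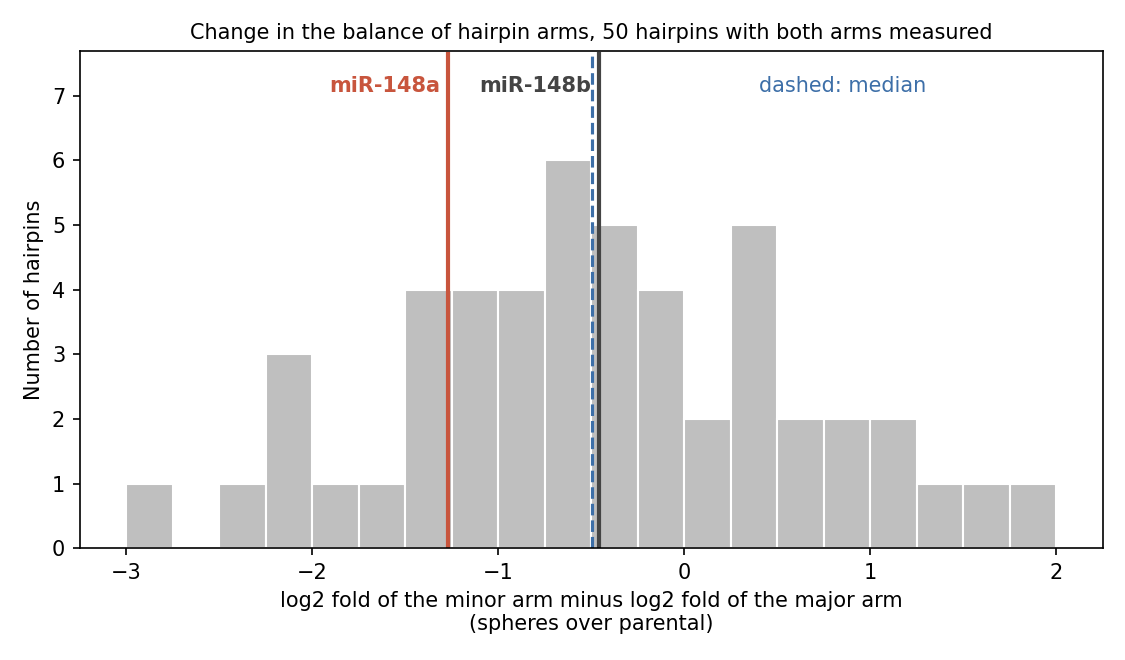
Histogram of the log2 fold of the minor arm minus that of the major arm (spheres over parental) for 50 hairpins with both arms measured; the solid lines mark miR-148a (red, -1.27) and miR-148b (dark grey, -0.46), and the dashed line the median (-0.50). The miR-148a hairpin lies below the lower quartile of -1.14, and the miR-148b hairpin lies beside the median.

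miR-152 is listed in both files without an arm, and its values are given under that name. It had 56.4 rescaled RPKM in spheres and 21.5 in parental cells, on about 38.5 estimated reads in spheres and 97.6 in parental cells. It was 2.63-fold higher in spheres as a share of miRNA (1.76 to 3.85), a log2 fold of 1.37, and its deposited log2 fold was -0.87. Whether it is higher or lower in spheres therefore depends on the scale. Its difference from the members does not. Relative to miR-148a-3p, miR-152 was 2.48-fold higher in spheres (1.68 to 3.66), and relative to miR-148b-3p 2.72-fold (1.82 to 4.07). Even so, miR-148a-3p exceeded it 108-fold in spheres and 267-fold in parental cells. In all, 5 such ratios between names of the family were compared. How reads that fit more than 1 of these similar names were assigned is not stated. Their part in these ratios was not tested.

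The order of the levels was miR-148a-3p, miR-148b-3p and miR-148a-5p in both libraries, with counting intervals that did not overlap between neighbours. Below them, miR-152 preceded miR-148b-5p in spheres, where the intervals of 40.0 to 77.3 and 27.3 to 59.3 rescaled RPKM overlapped. In parental cells miR-148b-5p preceded miR-152, with intervals of 51.8 to 66.1 and 17.4 to 26.2.

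**Figure D4:**
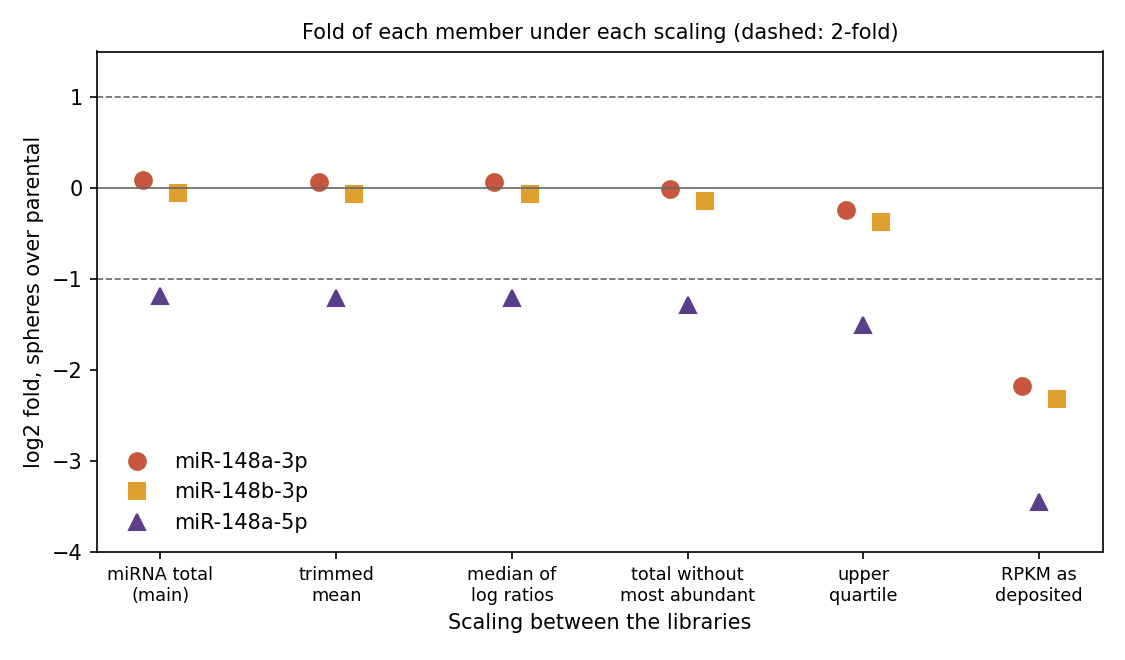
Log2 fold (spheres over parental) of the 3 members under 6 scalings between the libraries; dashed lines mark 2-fold. miR-148a-3p and miR-148b-3p stay within 2-fold under all scalings to the miRNAs and lie at -2.18 and -2.32 as deposited, while miR-148a-5p lies below -1 under each scaling.

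The miRNAs nearest to each member in level in both libraries were found by Euclidean distance in log2 rescaled RPKM over the 2 libraries. For miR-148a-3p these were miR-16-5p (distance 0.20), let-7b-5p (0.41) and miR-30e-5p (0.61). Their log2 folds were -0.16, 0.52 and 0.55. For miR-148b-3p they were miR-183-5p (0.26), miR-200b-3p (0.30) and miR-125b-5p (0.39), with log2 folds of 0.29, -0.30 and -0.14. For miR-148a-5p they were miR-744-5p (0.12), let-7d-3p (0.22) and miR-629-5p (0.37), with log2 folds of -1.07, -0.93 and -1.11. With 2 libraries such nearness describes levels and no more.

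A list of other miRNAs known to repress DNA methyltransferases or the polycomb methyltransferase EZH2 was set beside the family. Of its 12 names, 11 were measured, 4 were at least 2-fold higher in spheres and no name was at least 2-fold lower, beside 23.0% and 19.0% of all measured miRNAs. Their median log2 fold was 0.84, against 0.020 over all measured miRNAs. As deposited, none was higher and 9 of the 11 were at least 2-fold lower, beside 6.32% and 79.6% of all measured miRNAs, so that count is near the background. The deposited median was -1.42 for the list and -2.25 over all measured miRNAs. The 4 highest in level included miR-26a-5p, which represses EZH2, with 11770 rescaled RPKM in spheres and 9562 in parental cells. miR-101-3p, also directed at EZH2, had 1922 in spheres and 1895 in parental cells, a log2 fold of 0.020.

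Of the miR-29 family, which represses DNMT3A and DNMT3B, miR-29a-3p had 1853 rescaled RPKM in spheres and 968 in parental cells, 1.91-fold higher (1.80 to 2.04). The change was smaller for miR-29b-3p, with 554 in spheres and 422 in parental cells, 1.31-fold higher (1.18 to 1.46). miR-29c-3p had 1502 in spheres and 743 in parental cells, 2.02-fold higher (1.88 to 2.17). The other 3 names at least 2-fold higher, given because the count is small, were miR-26b-5p at 2.08-fold (1.92 to 2.26), miR-143-3p at 2.56-fold (1.76 to 3.67) and miR-342-3p at 2.64-fold (1.86 to 3.69). As deposited, the log2 folds were -1.33 (miR-29a-3p), -1.87 (miR-29b-3p), -1.25 (miR-29c-3p), -1.21 (miR-26b-5p), -0.91 (miR-143-3p) and -0.87 (miR-342-3p), all lower in spheres. miR-143-3p is also the name that carries the mesenchymal marker sum above. The call of miR-29c-3p was lost under all 4 other scalings to the miRNAs, that of miR-26b-5p under 2 of the 4, and no interval of the 4 lay wholly beyond 2-fold. miR-342-3p and miR-126-3p, which like miR-148a-3p have been described to repress DNMT1, had 70.1 and 68.9 rescaled RPKM in spheres and 26.5 and 38.3 in parental cells. miR-185-5p, also described to repress DNMT1, had 58.9 in spheres and 56.9 in parental cells. All of these were far below miR-148a-3p in level.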

How the data were processed

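Per the labels' protocols, libraries were made with a TruSeq small RNA kit and then size-fractionated. The submitters' processing notes name hg19. No source used here names the aligner, counter or miRNA release. Per the file headers, the deposited unit is RPKM, which the authors computed for each mature miRNA name without depositing counts. The commonest low value was taken as 1 read on 22 nt (8.07 RPKM in spheres, 5.84 in parental cells). Reads were estimated as RPKM times the RefSeq mature length over 22 nt and that value (22 nt for names without an entry, miR-148a-5p and miR-152 among them). Of 463 sphere and 615 parental values below 200 reads with a RefSeq length, 36.1% and 38.2% were whole within 0.001, so no count test was run.

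Log2 folds are spheres over parental on the log2(rescaled RPKM + 0.5) scale, on which changes of low miRNAs come out too small. Higher or lower means at least 2-fold. Shares and ratios of estimated reads have exact Clopper-Pearson 95% intervals, and ratios of ratios exact conditional intervals on rounded reads. All these intervals treat the estimated reads as counts. Most of the values checked above were not whole, so the intervals are approximate. Such intervals compare 2 libraries rather than conditions. They hold counting error alone. Reads copied by PCR are not separate molecules, so the intervals may be too narrow even for that error. Members and lists were chosen with earlier results of these data known. The named miRNAs were the members, miR-148b-5p (opposite arm) and miR-152 (listed without an arm), the 4 most abundant of the methyltransferase list and 3 nearest neighbours per member. Other names were chosen after their values were seen. On simulated reads for 2038 names, all 35 names raised 4-fold and all 23 lowered ones past the filter were called. Of 206 unchanged names, 1 was called. These reads were drawn from the parental profile with counting error alone. The run therefore checks the steps only, and cannot judge changes near 2-fold or variation between libraries. Python 3.11.15, numpy 2.4.6, pandas 2.3.3, scipy 1.17.1 and matplotlib 3.10.9 were used.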

Additional observations from a re-analysis of the deposited data

How the results depend on the processing

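On the deposited scale, a log2 shift of -2.27, the folds were -2.18 (miR-148a-3p), -2.32 (miR-148b-3p), -3.46 (miR-148a-5p) and -2.23 (summed members), with 17 miRNAs higher and 214 lower, and 0 higher and 9 lower of 11 in the methyltransferase list. The move away from the rescaled folds follows from how the 2 scales are built, since the miRNA total differs between the libraries. Why that total differs was not tested. The upper quartile, a shift of -0.32, gave -0.24 (miR-148a-3p), -0.37 (miR-148b-3p) and -0.28 (summed members), and 2 of 11 list names higher beside 51 of all 269. The total without the most abundant miRNAs gave -0.012 (miR-148a-3p) and -0.058 (summed members), and also 2 of 11 list names higher, beside 56 of 269. The signs of miR-148a-3p and of the sum are therefore not firm. The call of miR-148a-5p held under all 4 other scalings (-1.51 to -1.21) and both other pseudocounts (-1.19 and -1.15), but its whole counting interval did not lie beyond 2-fold. Asking for that left 45 higher and 17 lower of 269 miRNAs, and 0 of 11 list names higher. Without a filter 193 miRNAs were higher and 180 lower. At a mean of at least 100 these were 23 and 18 of 129, with 2 of 6 list names higher. Fewer names pass a stricter filter by construction. With minor arms of at least 100 rescaled RPKM and 20 reads, 13 of 15 hairpins had a lower fold of the minor arm, against 34 of 50, an alternative chosen after seeing the data. Taking 22 nt for all names cannot change the shares of miR-148a-3p, since the names in them already have that length here, miR-148a-5p by assumption. No paired analysis was possible because each group has 1 library, and no replicate could be left out. The small number of miRNA reads in spheres limits miR-148b-5p and miR-152 most.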

Other observations

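The heptamer CAGUGCA also occurs at bases 1 to 7, 1 base before its place in miR-148a-3p, in 5 other mature miRNAs of the RefSeq table. They were found by sequence after the values of the family were seen, and 4 of their names are in the files. miR-301a-3p had 377 rescaled RPKM in spheres and 382 in parental cells, and miR-130b-3p had 126 in spheres and 160 in parental cells. miR-3666 and miR-4295 were listed at 0 in both. miR-130a-3p and miR-301b, which the files also list, were not matched to the table, so no sum is given.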
